A study of Mus musculus with 5 samples.

Results

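Lymphocyte marker genes were compared between thoracic aortas of mice carrying a dominant negative PPARγ in smooth muscle and those of their non-transgenic littermates. The set comprised 28 genes chosen by name as markers of T cells, B cells or lymphocytes in general. Of these, 27 were matched to a probe set that the platform annotation assigns to a single gene, out of 18193 genes so matched on the array, and Lck was not matched and is not analysed here. Where several probe sets read a gene, the brightest by its 5-array mean was used. The members were 13 T cell genes, 9 B cell genes and 5 genes shared by both kinds of cell.

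All mice were male C57BL/6. The transgene encodes human PPARγ with the P467L mutation, under the promoter of smooth muscle myosin heavy chain, so it is targeted to vascular smooth muscle and not to lymphocytes, and the endogenous PPARγ genes remain. There were 3 P467L arrays and 2 non-transgenic arrays of the Affymetrix Mouse Genome 430 2.0 design, each hybridised with RNA from 1 pool of 6 to 8 aortas. Values are log2 expression levels made by RMA, a method that corrects background, equalises the distributions of the arrays and combines the probes of a probe set. A difference of 1 is therefore a 2-fold change. Differences are given as P467L minus non-transgenic, with the standard error (SE) of the limma fit.

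Lymphocytes of the normal aorta lie mainly in the adventitia and the surrounding fat, and few are found in the muscular media. A T cell recognises antigen through a receptor that signals through the CD3 chains, the kinases Lck and Zap70 and the adaptor Lat. A B cell does so through membrane immunoglobulin bound to Cd79a and Cd79b. In RNA of whole aorta, fewer lymphocytes and less RNA per lymphocyte cannot be told apart.

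Most members were slightly lower in P467L aortas, and none passed the test. Of 27 members 22 were lower and 5 higher, with a median difference of -0.12, beside a median of 0.00 over all 45037 probe sets, 49.2% of which were lower. Over the brightest probe sets of all 18193 genes, chosen as for the members, the median was 0.017 and 42.2% were lower. limma called 0 of 27 members at an adjusted p of 0.05, and over the whole array the same test called 0% of probe sets. At an unadjusted p of 0.05, 4 members lay past the threshold, all lower, where 2.74% of all probe sets did so as lower and 4.71% as higher. These were the T cell coreceptor chain Cd8b1, the B cell receptors Cd22 and Fcer2a, and the interleukin-7 receptor Il7r. In 8 members, all lower, no P467L value reached a non-transgenic one, against 7.61% of all probe sets apart in that direction and 11.2% in the other. The lowest difference was -0.35, for Ms4a1, and the highest 0.14, for Cd5. The former corresponds to 1.27-fold, so all differences were small on this scale.

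Many of these genes were dim. RMA values carry no detection call, so a background limit was taken from 77 olfactory, vomeronasal and taste receptor genes, which are not known as aortic transcripts. The limit was the 95th percentile of their means, 6.37. It is a rough guide, because each probe set has its own nonspecific signal. Of the 27 members 16 lay at or under it: 7 of 13 T cell genes, 6 of 9 B cell genes and 3 of 5 shared genes. The T cell genes near background were Cd27, Cd28, Cd2, Cd3g, Cd8b1, Cd5 and Cd3d, with means from 4.08 to 6.30. The B cell genes near background were Cr2, Blk, Fcer2a, Ms4a1, Pax5 and Cd79b, with means from 4.72 to 6.29, and the shared genes were Ccr7, Il7r and Ltb. Cd6 lay only just above the limit, at 6.38. The 99th percentile of the sensory receptor genes, 7.21, would have left 3 members above it: Zap70, Cd52 and Ptprcap. For Zap70 this rested on its brightest probe set, with a mean of 9.18, as its other probe sets had means of 6.28 and 5.06. The other probe sets of Cd4 (5.31), Cd22 (4.29) and Cd8a (4.38 to 5.76) also lay under the limit of 6.37. Of the 4 members with an unadjusted p under 0.05, Cd22 alone lay above the 95th percentile.

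**Figure D1:**
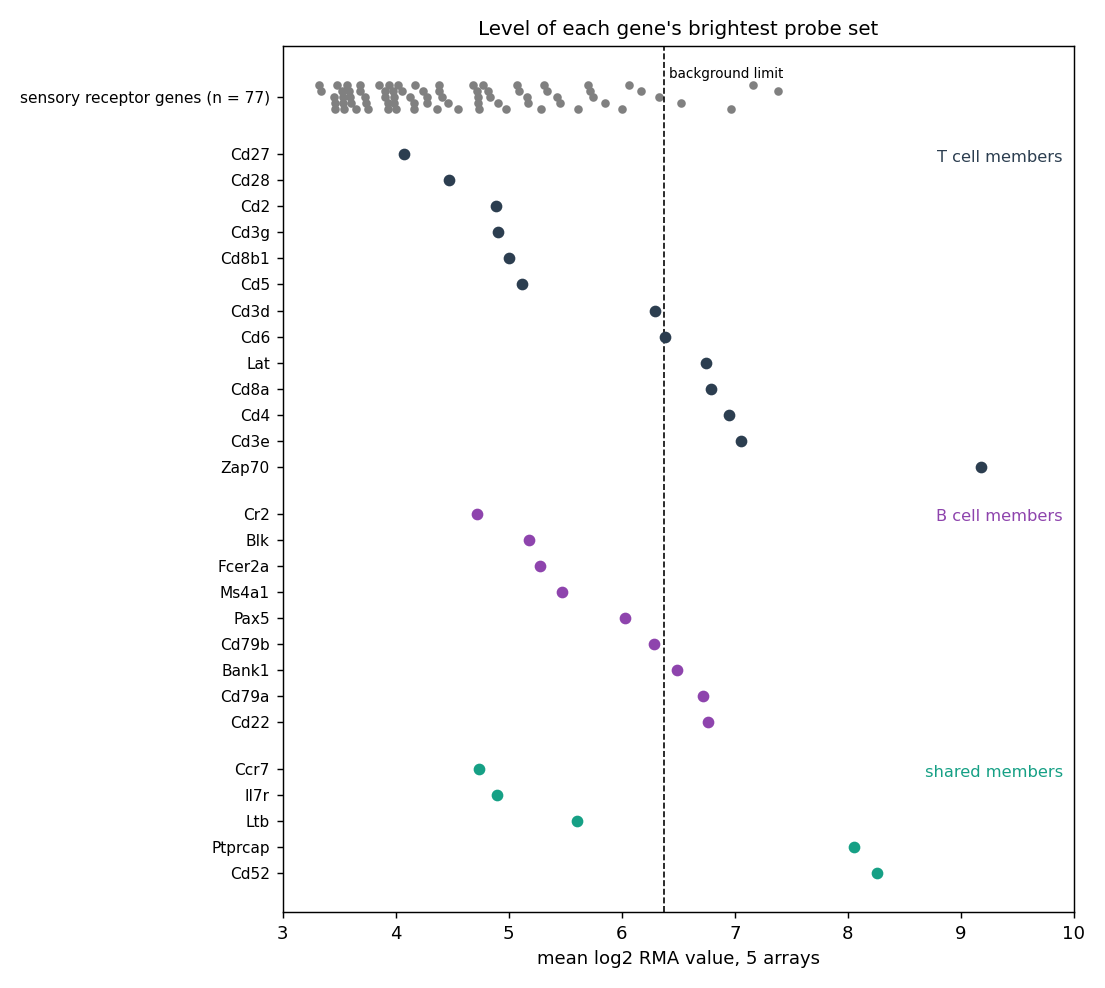
Mean log2 RMA value over the 5 arrays of the brightest probe set of each of 27 lymphocyte marker genes (named points, by class) and of 77 sensory receptor genes (grey points, spread vertically for visibility). The dashed line is the background limit of 6.37, with 11 members to its right and 16 at or to the left of it.

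The sensory receptor genes give the size of the differences seen where little transcript is likely. Of the 77, 51 were lower in P467L aortas and 24 higher, with a median difference of -0.025 and a range from -0.23 to 0.18. Over all 6920 genes at or under the limit the median difference was -0.013, with 56% lower, and over the 11273 genes above it 0.045, with 33.7% lower. The 16 members near background had a median of -0.10, and the 11 above it a median of -0.17. Lymphocyte genes were thus lower by the median on both sides of the limit, by more than all genes on the same side, though not past the test. The sets above the limit were not matched in level, with a median mean of 6.79 in the members and 8.76 in all genes.

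The CD3 chains carry the signal of the T cell receptor into the cell. Cd3e measured 7.22 and 7.04 in non-transgenic replicates 1 and 2 and 7.05, 6.97 and 6.98 in P467L replicates 1 to 3. The groups overlapped, with a difference of -0.13 (SE 0.070). Cd3d measured 6.46 and 6.35 in non-transgenic aortas and 6.32, 6.32 and 6.03 in the P467L arrays. All 3 P467L values lay below both non-transgenic ones, with replicate 3 the lowest, and the difference was -0.18 (SE 0.11). Cd3g measured 5.09 and 4.84 against 5.18, 4.88 and 4.54, so P467L arrays were both the highest and the lowest, and the difference of -0.098 (SE 0.22) was smaller than its error.

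Cd3d and Cd3g are neighbours that are read from opposite strands, and both were lowest in P467L replicate 3. The windows around their starts, and that of Cd22, the B cell member with the smallest p, are shown as the reference sequence of that pair and of that gene, although the difference of Cd3g was smaller than its error. Each runs from 250 bases before to 50 bases after the start, from RefSeq on GRCm38.p6. Capitals mark an E-box, CAGGTG or its reverse complement CACCTG, the kind of site bound by E proteins, transcription factors of T and B cell development. The window of Cd3g lies at chr9:44980382-44980681 on the minus strand, that of Cd3d at chr9:44981536-44981835 on the plus strand and that of Cd22 at chr7:30878979-30879278 on the minus strand.
Cd3g: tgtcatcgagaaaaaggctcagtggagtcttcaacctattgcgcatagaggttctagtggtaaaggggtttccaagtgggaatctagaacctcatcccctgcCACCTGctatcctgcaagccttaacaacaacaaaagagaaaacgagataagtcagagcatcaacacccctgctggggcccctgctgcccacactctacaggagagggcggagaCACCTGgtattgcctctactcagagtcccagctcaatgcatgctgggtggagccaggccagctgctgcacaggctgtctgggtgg
Cd3d: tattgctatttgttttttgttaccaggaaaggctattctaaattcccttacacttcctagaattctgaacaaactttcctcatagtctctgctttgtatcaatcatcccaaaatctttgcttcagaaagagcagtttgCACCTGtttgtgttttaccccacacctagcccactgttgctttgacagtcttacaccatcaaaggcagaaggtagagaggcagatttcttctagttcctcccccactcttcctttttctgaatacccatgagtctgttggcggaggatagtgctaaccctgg
Cd22: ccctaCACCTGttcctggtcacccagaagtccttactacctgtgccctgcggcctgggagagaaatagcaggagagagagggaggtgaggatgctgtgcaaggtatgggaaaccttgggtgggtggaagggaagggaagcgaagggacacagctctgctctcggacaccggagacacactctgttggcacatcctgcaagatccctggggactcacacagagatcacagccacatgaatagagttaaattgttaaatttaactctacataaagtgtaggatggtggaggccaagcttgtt

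Cd3g had 2 such matches, and Cd3d and Cd22 had 1 each. Of the members 16 had a promoter entry, with 20 windows in all, and the E-box was found in 12 of these windows, or 60%, belonging to 11 genes. Of all 32851 windows of that length 20.2% held it. A further 5 motifs were searched on both strands, each counted on its own. The ETS motif CAGGAAG was in 35% of member windows against 13.3% of all, the RUNX motif TGTGGT in 20% against 16.8%, and the EBF motif CCCNNGGG in 20% against 13.7%. The TATA box TATAAA was in 10% against 13.6%, and the octamer ATGCAAAT in 0 of 20 windows against 1.74%. These matches describe the letters of the windows and were not tested, and the arrays measured transcripts, not binding.

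The coreceptors set apart helper and cytotoxic T cells. Cd4, of helper T cells and some myeloid cells, measured 7.08 and 7.01 in non-transgenic aortas and 6.97, 6.82 and 6.85 in the P467L arrays. The groups did not overlap, and the difference was -0.17 (SE 0.063), with an adjusted p of 0.689 in limma. Cd8b1, the β chain of CD8 on cytotoxic T cells, measured 5.29 and 5.09 against 4.94, 4.94 and 4.74, a difference of -0.32 (SE 0.10, 95% interval from -0.59 to -0.043) with an adjusted p of 0.599. Its 5 values lay well under the background limit. Cd8a, the α chain, also found on some dendritic cells, measured 6.81 in both non-transgenic pools and 7.12, 6.70 and 6.53 in the P467L arrays, which lay on either side.

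Zap70 and Lat act next to the receptor. Zap70, the kinase recruited to the CD3 chains, measured 9.36 and 9.25 in non-transgenic aortas and 9.21, 9.09 and 8.99 in the P467L arrays. The groups did not overlap, with a difference of -0.21 (SE 0.083) and an adjusted p of 0.714. A second Zap70 probe set was higher in all 3 P467L arrays, at 6.65, 6.26 and 6.19 against 6.17 and 6.15, and the other one gave -0.050 (SE 0.097). The gene's probe sets therefore disagreed in direction. Lat, the adaptor that Zap70 phosphorylates and which platelets and mast cells also carry, measured 7.03 and 6.72 against 6.76, 6.58 and 6.65. Its groups overlapped, and the difference was -0.21 (SE 0.12).

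The remaining T cell genes encode surface and costimulatory receptors, and 4 of these 5 probe sets lay near background. Cd5, an inhibitory receptor of T cells and some B cells, was the member with the highest difference, at 4.94 and 5.13 in non-transgenic aortas and 5.13, 5.27 and 5.13 in the P467L arrays, or 0.14 (SE 0.084). Cd2, an adhesion receptor, measured 4.95 and 5.00 against 4.93, 4.97 and 4.57. Its difference of -0.15 (SE 0.14) rested on P467L replicate 3, and without that array it was -0.025. Cd6, a relative of Cd5, differed by 0.032 (SE 0.052), and the costimulatory receptors Cd27 and Cd28 by -0.082 (SE 0.039) and -0.063 (SE 0.043). Cd27 was lower in all 3 P467L arrays, from 4.03 to 4.05 against 4.09 and 4.16, a gap of a few hundredths.

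Among B cell genes, Cd79a and Cd79b carry the signal of the B cell receptor. Cd79a measured 6.95 and 6.84 in non-transgenic aortas and 6.89, 6.36 and 6.56 in the P467L arrays. P467L replicates 2 and 3 were low while replicate 1 lay between the non-transgenic values, and the difference was -0.29 (SE 0.17). Cd79b measured 6.26 and 6.50 against 6.37, 6.05 and 6.26, with overlapping groups and a difference of -0.15 (SE 0.13).

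Cd22, an inhibitory receptor of B cells, measured 6.93 in both non-transgenic pools and 6.78, 6.55 and 6.62 in the P467L arrays. All P467L values were lower, and the difference was -0.28 (SE 0.080, 95% interval from -0.50 to -0.062), or 1.21-fold. Its unadjusted p of 0.023 was the smallest of the members, and its adjusted p in limma was 0.551. A dimmer probe set of Cd22, with a mean of 4.29, gave 0.047 (SE 0.041).

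Ms4a1, which encodes the B cell antigen CD20, had the lowest difference of all members. It measured 5.46 and 5.91 in non-transgenic aortas and 5.46, 5.09 and 5.46 in the P467L arrays. Non-transgenic replicate 2 was high and P467L replicate 2 low, and 3 arrays had the same value, so the difference of -0.35 (SE 0.20) rested on single arrays. Without non-transgenic replicate 2 it was -0.12. Fcer2a, the low-affinity IgE receptor CD23 of mature B cells, measured 5.39 and 5.54 against 5.08, 5.07 and 5.31, without overlap, a difference of -0.31 (SE 0.10, adjusted p of 0.614 in limma). Its other probe set gave -0.075 (SE 0.056).

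Bank1, an adaptor of B cell receptor signalling, measured 6.63 and 6.61 against 6.35, 6.25 and 6.62, so P467L replicate 3 lay with the non-transgenic arrays, and the difference was -0.21 (SE 0.12). Cr2, the complement receptor CD21 of B cells and follicular dendritic cells, differed by -0.087 (SE 0.059). The B cell kinase Blk differed by -0.047 (SE 0.085). Pax5, the transcription factor of B cell identity, was the 1 B cell gene that was higher, at 0.067 (SE 0.16), through P467L replicate 1 at 6.33 against 5.85 to 5.99 in the other arrays.

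Of the shared genes, Il7r, the receptor for a survival cytokine of naive T cells and B cell precursors, measured 4.94 and 4.99 in non-transgenic aortas and 4.86, 4.86 and 4.82 in the P467L arrays. The groups did not overlap, with a difference of -0.12 (SE 0.038) and an adjusted p of 0.60 in limma. Its other probe set gave 0.040 (SE 0.040), and both had means under 5. Ccr7, the chemokine receptor that guides lymphocytes to lymph nodes, differed by -0.11 (SE 0.055). Ltb, which encodes lymphotoxin β, measured 5.53 and 5.65 against 5.94, 5.40 and 5.48, a difference of 0.017 (SE 0.19).

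Cd52 and Ptprcap lay well above the background limit. Cd52, a small surface glycoprotein of lymphocytes and other leukocytes, measured 8.20 and 8.23 against 8.49, 8.23 and 8.12, with P467L arrays on both sides and a difference of 0.065 (SE 0.12). Ptprcap, a partner of the leukocyte phosphatase CD45, measured 8.08 and 8.09 against 8.08, 8.08 and 7.93, and its difference of -0.055 (SE 0.063) rested on P467L replicate 3.

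**Figure D2:**
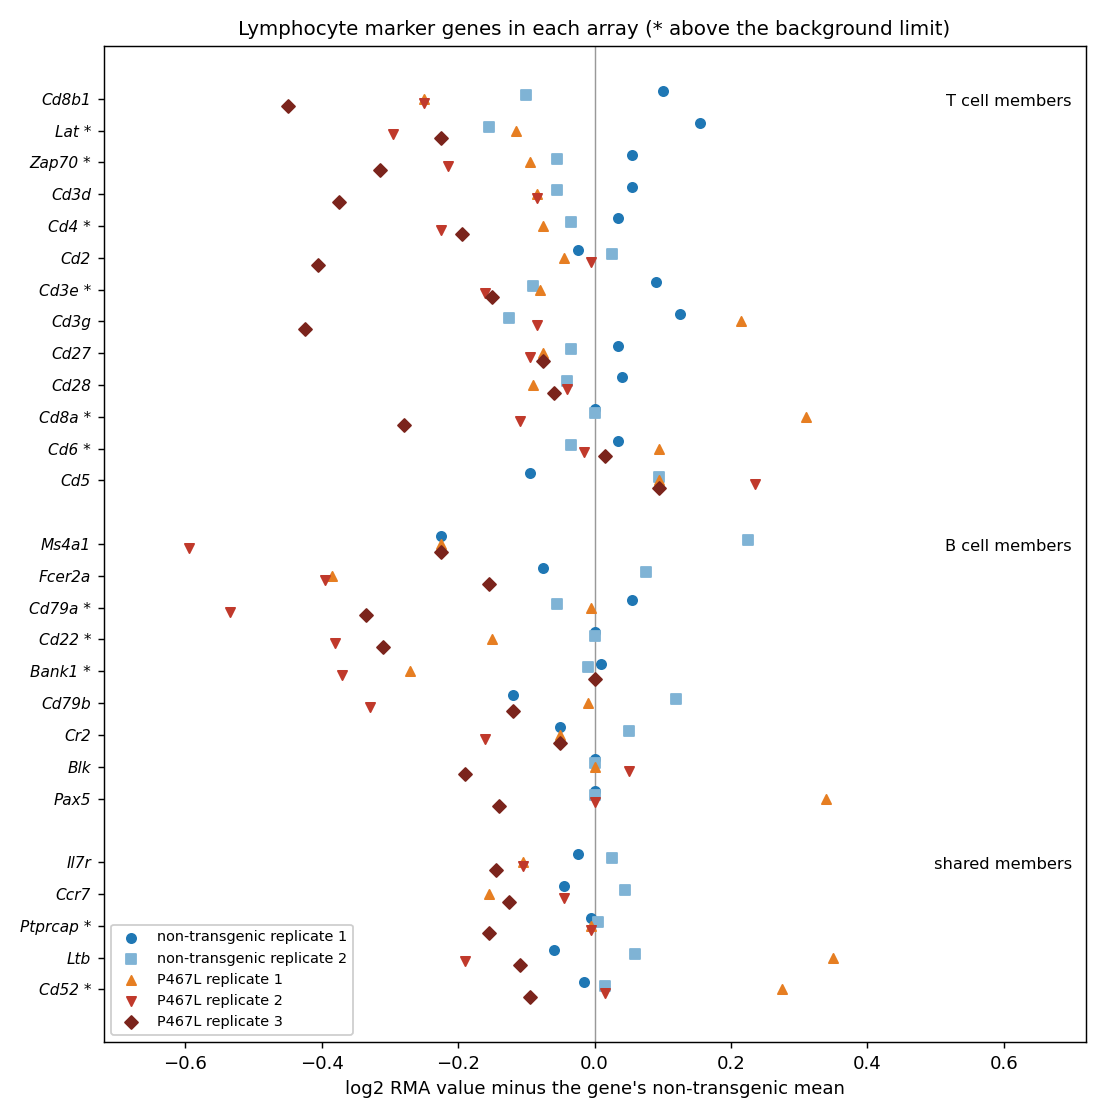
Value of each lymphocyte marker gene in each array, as log2 RMA value minus that gene's non-transgenic mean (horizontal axis), grouped into T cell, B cell and shared members and sorted by difference. Most P467L symbols lie left of 0, 7 of 9 B cell members lie lowest in P467L replicate 2 (Blk and Pax5 in replicate 3), and P467L replicate 1 lies to the right in Cd3g, Cd8a, Pax5, Ltb and Cd52.

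Over all members, the arrays in which the values were low differed between the T cell and the B cell genes, less clearly so above the background limit. T cell genes had a median difference of -0.13, with 11 of 13 lower, and B cell genes of -0.21, with 8 of 9 lower. P467L replicate 3 was the lowest array in 6 of 13 T cell genes and replicate 2 in 4. P467L replicate 2 was the lowest in 7 of 9 B cell genes and replicate 3 in the other two. Over all probe sets, P467L replicate 2 was the lowest array in 14.1% and replicate 3 in 27.1%. Among genes at or under the background limit these shares were 17.9% and 39.4%, and among genes above it 7.83% and 23.2%. Among the sensory receptor genes they were 16.9% and 44.2%. Replicate 3 was the lowest in 46.2% of the T cell genes, near its share in the sensory receptor genes, and replicate 2 in 77.8% of the B cell genes. Relative to the non-transgenic mean of each gene, the T cell genes had medians of -0.075, -0.095 and -0.23 in P467L replicates 1 to 3, and the B cell genes had medians of -0.05, -0.37 and -0.16. The further B cell genes read below did not share the pattern of the B cell members. Of these 22, P467L replicate 3 was the lowest array in 9 and replicate 2 in 7, with medians of -0.125 and -0.11. Of 23 further T cell genes replicate 3 was the lowest in 14 and replicate 2 in 2. In the T cell members the lead of replicate 3 lay in those near background. Of these 7, replicate 3 was the lowest in 4 and replicate 2 in 1, with medians of -0.375 and -0.085. Of the 6 T cell members above the limit, replicate 2 was the lowest in 3 and replicate 3 in 2, with medians of -0.19 and -0.21. Replicate 2 was the lowest in all 3 B cell members above the limit, with medians of -0.38 in replicate 2 and -0.31 in replicate 3. The difference between the classes was not tested.

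The non-transgenic arrays differed from each other in the same genes. Non-transgenic replicate 1 was the highest array in 8 of 13 T cell genes, and replicate 2 in 4 of 9 B cell genes. In all, 25 of 27 members were lowest in a P467L array, against 61.3% of all probe sets, and 19 were highest in a non-transgenic array, against 28.8%. Over the brightest probe set of each gene on the array these shares were 55.6% and 24.4%. Without non-transgenic replicate 1 the T cell median was -0.047, and without replicate 2 it was -0.20. The B cell median was -0.24 without non-transgenic replicate 1 and -0.12 without replicate 2.

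Certain arrays stood apart, P467L replicate 1 across the genome and non-transgenic replicate 2 in stomach genes. P467L replicate 1 correlated with the others at 0.985 to 0.991, and the nuclear RNA Malat1 measured 8.03 there against 9.45 to 9.87 elsewhere. Non-transgenic replicate 2 was the highest array in 10 of 11 stomach genes, and correlated with the others at 0.986 to 0.997. Smooth muscle markers, which define the labelled tissue, all lay above the background limit, with means from 9.93 to 14.8 over 10 genes, and their median difference was 0.017. Without P467L replicate 1 the median was -0.21 for T cell genes and -0.23 for B cell genes, and 25 of 27 members were lower. Without it and non-transgenic replicate 2, the medians were -0.25 and -0.19 and 26 were lower. In both cases 0 members passed the test.

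Further lymphocyte genes were also lower by the median, by less than the members. Of 23 further T cell genes 16 were lower and 7 higher (median -0.052), and 0 passed the test. The smallest p belonged to Thy1, a T cell antigen that fibroblasts also carry, at 0.56 (SE 0.16), and to Bcl11b, a T cell transcription factor, at -0.29 (SE 0.11). Of 22 further B cell genes 18 were lower (median -0.073), and 0 passed. Among these, Jchain, the joining chain of secreted immunoglobulins, measured -0.24 (SE 0.067) and H2-Ob, a class II chaperone of B cells, -0.39 (SE 0.13), both near background. Of 14 genes of natural killer and cytotoxic cells 11 were lower (median -0.064), with the protease genes Ctsw at -0.29 (SE 0.11) and Gzma at -0.24 (SE 0.13), and 0 passed. Most of these genes were dim, with 3 of 23, 8 of 22 and 2 of 14 above the background limit. The shares lower were 69.6%, 81.8% and 78.6%, beside 66.2% of the sensory receptor genes and 56.0% of all genes at or under the limit. In 10 of the 14 natural killer and cytotoxic genes at least 3 arrays had the same value.

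The thymus and lymph nodes lie near the thoracic aorta, so their markers were read beside the members. Of 11 thymus genes 8 were lower, with a median of -0.092 and 0 past the test, and 2 lay above the background limit. Rag1, the recombinase of immature lymphocytes, measured 5.75 and 5.99 in non-transgenic aortas and 5.55, 5.59 and 5.01 in the P467L arrays. Rag1 lay near background in every array and was lowest in P467L replicate 3. Dntt, the terminal transferase of the same stage, gave -0.26 (SE 0.13). Of 9 lymph node stroma and lymphatic genes 5 were lower, with a median of -0.01 and 0 past the test, Pdpn of lymphatic endothelium and fibroblasts measuring 0.13 (SE 0.076) and the lymphatic factor Prox1 -0.12 (SE 0.076). The part of these tissues in the lymphocyte values was not tested.

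Other blood and immune cells did not share 1 direction. Of 20 macrophage genes 18 were higher in P467L aortas, with a median of 0.15, and 0 passed the test. C1qb, a complement subunit made by macrophages, measured 0.36 (SE 0.12) and the adaptor Tyrobp 0.33 (SE 0.13). Their medians were 0.30, 0.018 and 0.18 in P467L replicates 1 to 3. Genes of leukocytes in general numbered 23, of which 14 were lower and 9 higher (median -0.037), and 0 passed the test. Among them the actin-bundling protein gene Lcp1 stood at 0.26 (SE 0.11) and Arhgdib at 0.18 (SE 0.10). Ptprc, which encodes CD45, measured 7.37 and 7.68 in non-transgenic aortas and 6.51, 7.28 and 7.68 in the P467L arrays, and was lowest in the array that was lowest in Malat1.

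Red cell genes had medians of -0.01, -0.085 and -0.20 in P467L replicates 1 to 3, with 4 of 5 genes lower and 0 past the test. The smallest p belonged to Epb42, a protein of the red cell membrane skeleton, which measured 5.79 and 5.86 against 5.79, 5.74 and 5.63, a difference of -0.11 (SE 0.064). Alas2, the heme synthesis enzyme of red cell precursors, measured 11.81 and 11.69 in non-transgenic aortas and 11.70, 11.26 and 10.62 in the P467L arrays, a difference of -0.56 (SE 0.34). Of the 5 red cell genes 2 lay above the background limit, Alas2 among them, so the red cell medians rested mostly on dim genes. Their order over the P467L arrays was that of the T cell medians, with replicate 3 lowest. The sensory receptor genes had medians of 0.00, -0.015 and -0.05 in the same arrays, also lowest in replicate 3, and the summed linear signal of their 77 genes was 2439 in both non-transgenic pools and from 2234 to 2457 in the P467L arrays. The summed linear signal of the 13 T cell genes ranged from 1418 to 1533 in the non-transgenic and from 1239 to 1436 in the P467L arrays, that of the 9 B cell genes from 634 to 660 and from 512 to 614, and that of the 5 red cell genes from 3670 to 4019 and from 1782 to 3773. Single genes weighed on these sums. Alas2 alone gave at least 88.2% of the red cell sum in each of the 5 arrays, Zap70 41.0% to 42.9% of the T cell sum and Cd22 17.3% to 19.2% of the B cell sum. The part of blood content or of array background in the lymphocyte values was not tested.

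**Figure D3:**
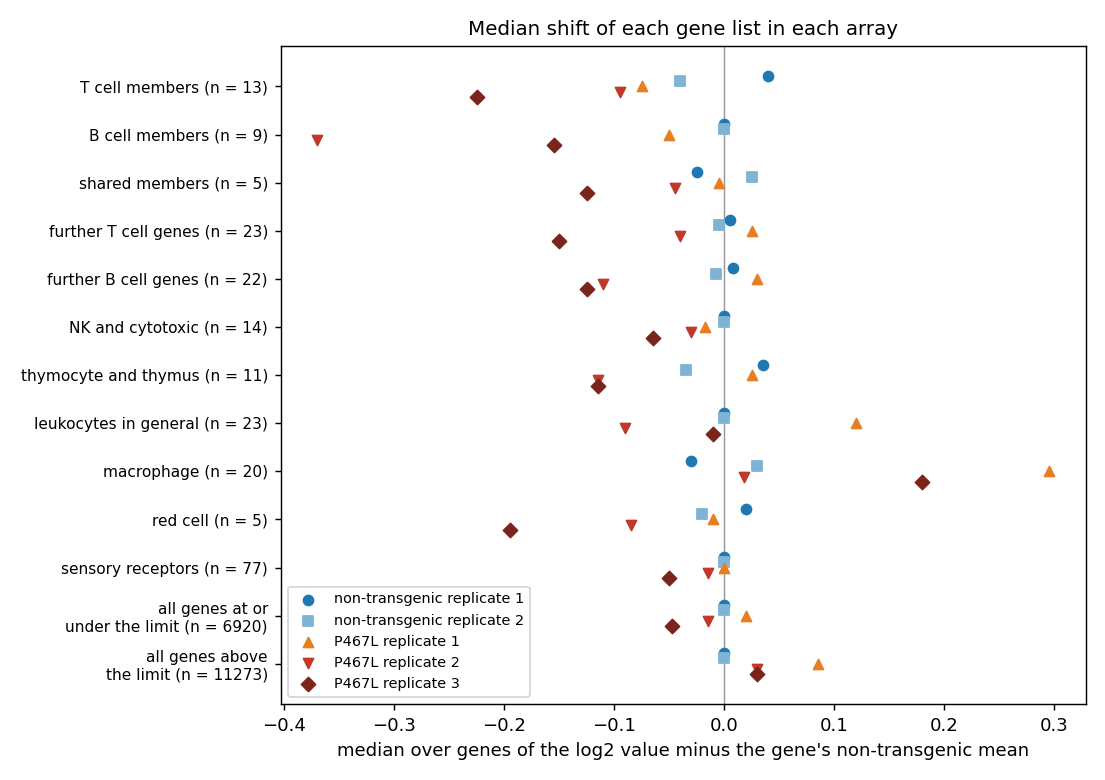
Median over each gene list of the log2 RMA value minus the gene's non-transgenic mean (horizontal axis), for each of the 5 arrays. The non-transgenic symbols mirror each other about 0 by construction. B cell members reach -0.37 in P467L replicate 2, T cell members -0.23 in P467L replicate 3, and macrophage genes lie at 0.30 in P467L replicate 1.

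Members read by more than 1 probe set gave a check within the same arrays. There were 9 such members with 22 probe sets, and the probe sets shared a direction in 5 members and differed in 4: Cd8a, Zap70, Cd22 and Il7r. The 5 Cd8a probe sets ran from -0.43 (SE 0.27) to 0.068 (SE 0.16). The brightest of them carries the x_at suffix, which marks probe sets whose probes can match other transcripts. The Zap70 probe set that was higher carries it too, as does a dimmer Cd8a probe set that was higher. Cd4, Cd28, Ms4a1 and Fcer2a were lower in both of their probe sets, and Pax5 was higher in both. Over all 40 probe sets of the 27 members, 29 were lower, 22 of them the brightest probe sets already counted, where 49.2% of all probe sets on the array were lower. The other probe sets went both ways. They were lower in Cd4, Cd28, Ms4a1 and Fcer2a, higher in Cd22, Pax5 and Il7r, and mixed in Cd8a and Zap70. In 10 the groups did not overlap with P467L lower, 8 of them brightest probe sets, and in 1, the Zap70 probe set named above, with P467L higher. Over the array these shares were 7.61% and 11.2%.

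**Figure D4:**
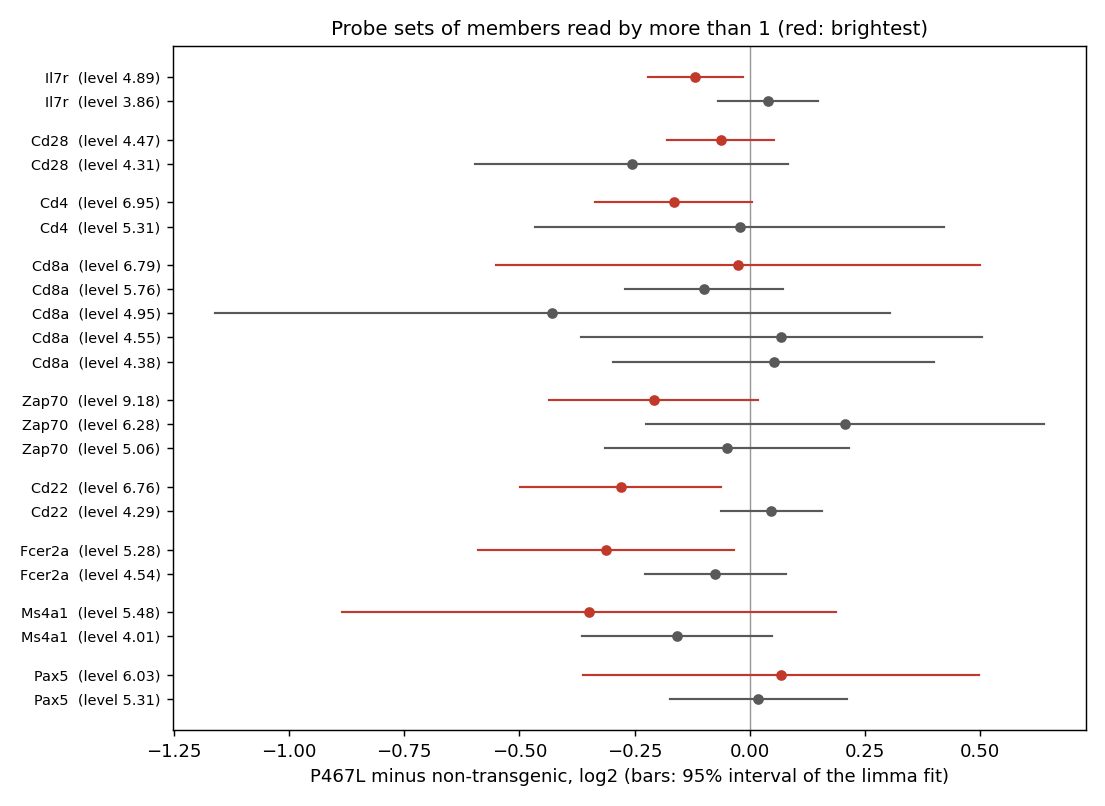
Difference between P467L and non-transgenic aortas (log2, horizontal axis) for the 22 probe sets of 9 members, with the 95% interval of the limma fit as bars and the mean level of each probe set beside its name. Red marks the brightest probe set of a gene; intervals of the brightest Cd22, Fcer2a and Il7r probe sets lie below 0 before adjustment, and those of their other probe sets include it.

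RMA gave exactly equal values in many dim probe sets. In 6 of 27 members at least 3 of the 5 arrays had the same value to 2 decimals, 4 of them B cell genes (Ms4a1, Pax5, Blk and Cr2) with Cd5 and Ptprcap. This was 22.2% of the members, beside 23.0% over the brightest probe set of each gene on the array. Over all probe sets this share was 26.9%, and over the sensory receptor genes 49.4%. In such a gene the difference between the groups comes from 1 or 2 arrays. The SE of the 27 differences ran from 0.038 to 0.22, with a median of 0.10, against a median of 0.079 over all probe sets.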

How the data were processed

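Thoracic aorta RNA was measured on 5 Affymetrix Mouse Genome 430 2.0 arrays, grouped by the sample labels. The deposited values are log2 levels made by the authors by RMA. The submitters' processing notes name Affymetrix Power Tools, and its version was not given in the sources used here. This normalization removes shifts shared by all transcripts. Probe sets were named from the platform annotation, and symbols were checked through NCBI gene numbers in the GRCm38.p6 gene table, which changed 0 symbols. Of 45037 probe sets, 34945 had 1 gene, 932 several and 9160 none, and 64 control probe sets were left out.

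The genotype difference was fitted in R 4.3.3 using limma 3.58.1 (lmFit, then eBayes) without covariates. Two-sided p-values of the 45037 probe sets were adjusted together by Benjamini-Hochberg, and 0.05 was the threshold. The code was tested on simulated data. Lists are described by counts and medians, with no list test. Named were all 28 listed genes but the unmatched one, every other probe set of a member, and of each further list the 2 genes with the smallest p, with Ptprc and Malat1. Members and lists were chosen with earlier results of these data known, and the motifs and the promoters shown were chosen after the values were seen. The number of arrays limits the precision. The sources used here name no batch.

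The alternatives were a replicate block, median centring, a second quantile normalization, removal of dim probe sets, a robust fit with a variance trend, array weights, leaving out each array, the mean of a gene's probe sets, 1 probe set per gene and other background limits. Leaving out both arrays that stood apart, and array weights by a gene-by-gene method, were added after the data were seen.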

Additional observations from a re-analysis of the deposited data

How the results depend on the processing

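Over the 15 alternatives, 20 of 27 members kept the sign of their difference in each alternative that gave a value, and 7 changed it at least once, in 26 of 391 values. The robust fit with a variance trend, 1 probe set per gene and removal of dim probe sets left each difference unchanged, so no sign could change there. The replicate block gave the same differences as leaving out P467L replicate 3, so the same sign changes enter under both. With median centring limma called 15 probe sets over the array, with 1 probe set per gene 10, with array weights 2245 and with gene-by-gene array weights 283, against 0 otherwise. Array weights called 3 members, Cd22 at -0.38, Cd4 at -0.22 and Fcer2a at -0.39 (adjusted p in limma 0.029, 0.045 and 0.047), but the estimate did not converge and gave P467L replicate 2 a weight of 34.1 against at most 0.90 elsewhere; each other alternative called 0 members. The B cell median was -0.37 with array weights and from -0.27 to -0.12 when single arrays were left out; the T cell median was from -0.21 to -0.047 with single arrays left out and -0.25 without both arrays that stood apart. The numbers pair nothing that the labels state; with the replicate block 0 probe sets were called, the medians were -0.085 and -0.27, and Cd3g was 0.065, Cd8a 0.10 and Blk 0.025. Cd8a was 0.013 with median centring, and Cd8a and Blk were 0.005 and 0.002 with a second quantile normalization. With array weights Cd6 was -0.014, Blk 0.048 and Ltb -0.19, and gene by gene -0.0076, 0.028 and -0.16. Without both arrays that stood apart Cd6 was -0.035, Pax5 -0.07, Ltb -0.09 and Cd52 -0.025. With single arrays left out the differences ran from -0.26 to 0.065 for Cd3g, -0.20 to 0.10 for Cd8a, -0.095 to 0.025 for Blk, -0.15 to 0.12 for Ltb, -0.0033 to 0.067 for Cd6, -0.07 to 0.17 for Pax5 and -0.04 to 0.15 for Cd52. The cause was not tested, except that leaving out arrays leaves fewer samples. Where 1 non-transgenic array remained, it was assumed to vary like the P467L arrays. The members near background were 13 at the 90th percentile, 24 at the 99th and 14 at the median of all probe sets. Signal over background limits the 16 dim members.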

Other observations

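The further lists read beside the lymphocyte genes had no gene past the test. Of 8 adipocyte genes 4 were lower and 4 higher, with a median of -0.12. Fabp4, a fatty acid carrier of adipocytes, measured 12.35 and 11.61 in non-transgenic aortas and 11.70, 11.02 and 11.45 in the P467L arrays, and Cidea, a lipid droplet protein of brown fat, differed by -0.40 (SE 0.31). Both were highest in non-transgenic replicate 1, the array that was also highest in 8 of 13 T cell genes. Of 10 endothelial genes 7 were higher (median 0.069), with Emcn at -1.05 (SE 0.12) and Nos3 at 0.47 (SE 0.054). Among smooth muscle genes Des, an intermediate filament protein, measured 0.81 (SE 0.13) and the cytoskeletal protein gene Smtn 0.16 (SE 0.038). Of 11 stomach genes 10 were lower (median -0.91). Relative to the non-transgenic mean of each gene, their medians were -1.46 and 1.46 in non-transgenic replicates 1 and 2. In P467L replicates 1 to 3 they were -0.83, -0.715 and -1.035, above that of non-transgenic replicate 1 and below that of replicate 2. Non-transgenic replicate 1 was the lowest array in 6 of the 11 genes. Chia1, a gastric chitinase, measured 7.70 and 11.53 against 7.58, 6.46 and 5.50, and Pgc, the precursor of a pepsin, 8.54 and 11.37 against 8.47, 7.88 and 7.0. Neat1 and Meg3, noncoding RNAs, were lowest in P467L replicate 1 together with Malat1.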
